A study of Atriplex lentiformis with 8 samples.

Results

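The chaperones described here are the matches in Atriplex lentiformis (quailbush) leaves to the Arabidopsis HSP90 family and to the HSP100 disaggregases HSP101, CLPB3 and CLPB4. An assembled transcript was counted as a member when its best match in the TAIR10 Arabidopsis proteins, as listed in the deposited table, was 1 of 10 loci. Of 46492 transcripts in the table, 19 met this rule, and they covered 8 of the 10 loci. No transcript had HSP90.2 (AT5G56030) or HSP90.3 (AT5G56010) as its best match. A best match does not show orthology, and the genes are named after it.

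The series sequenced leaf RNA of a salt-tolerant C4 shrub in 8 libraries, 4 from plants whose chamber ran at 43 °C in the day and 30 °C in the night and 4 from plants whose separate chamber ran at 23 °C in the day and 18 °C in the night. Day length was 16 hours and the labels give 8 weeks for both groups. Hot leaves carry the label 18:3 lipid phenotype and cool leaves the label 16:3 lipid phenotype, after the fatty acid that marks the route of chloroplast lipid assembly. Temperature and chamber coincide, so their parts in any difference cannot be told apart. The comparison asks which leaf transcripts differed between these growth conditions, and the labels describe growth in the heat and name no short heat shock.

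Levels are in FPKM, a fragment count divided by the length of the transcript and the depth of sequencing, with 1 authors' mean per temperature. Values of single libraries were not analysed here, so the means carry no SD, and the depth of reads is unknown. Below, rose and fell are used of transcripts whose adjusted p, as the authors' deposited table lists it, lay under 0.05. By that rule 20.7% of all transcripts rose and 17.8% fell. In leaf RNA a lower level in each cell and a smaller share of the cells that express a gene cannot be told apart.

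HSP90 proteins are dimeric, ATP-driven chaperones that act late in folding and hold kinases, receptors and transcription factors in a state ready for activation. Plants carry them in the cytosol, the plastid, the mitochondrion and the endoplasmic reticulum (ER). HSP100 proteins of the ClpB type form rings that pull single polypeptides out of aggregates and pass them on for refolding with HSP70. In Arabidopsis the cytosolic member, HSP101, is needed for acquired tolerance to heat.

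Both families were mostly higher at 43 °C. HSP90.1, the cytosolic HSP90 that is heat-inducible in Arabidopsis, differed most in level, with 448 FPKM at 43 °C against 30.7 FPKM at 23 °C for its main transcript. Plastid HSP90.5 and mitochondrial HSP90.6 were more than 4-fold higher, HSP101 was 2.99-fold higher, ER HSP90.7 2.05-fold and mitochondrial CLPB4 1.87-fold. HSP90.4, a cytosolic form, was lower, and plastid CLPB3 did not pass. Among the 19 transcripts there were 13 that rose, 1 that fell and 5 that did not pass, and by their most abundant transcript 6 of the 8 loci rose and 1 fell. By that same rule 26.9% of all matched loci rose and 30.9% fell. By the authors' deposited table the 19 had a median log2 change of 1.57, beside 0.10 over all transcripts. Of the 16 HSP90 transcripts 11 rose, 8 of them matches to the 1 locus HSP90.6, and of the 3 HSP100 transcripts 2 rose. Over all transcripts 20.7% rose.

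Transcripts of 1 locus can share reads, so FPKM were also summed per locus. The sum was at least 1.5-fold higher at 43 °C for 6 of the 8 member loci, beside 22.2% of all 12468 matched loci, and at least 1.5-fold lower for none, beside 18.8% of all matched loci. These sums carry no test. The median log2 ratio of the sums was 1.31 for the 8 loci and 0.01 for all matched loci.

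**Figure D1:**
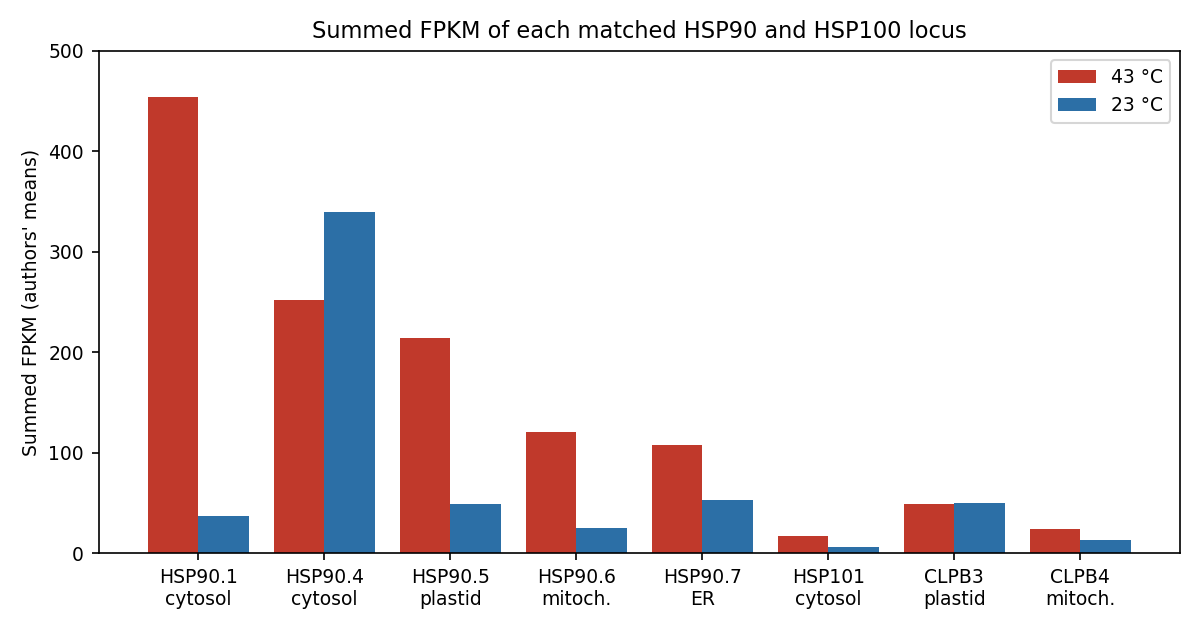
FPKM summed over all transcripts of each matched locus (y axis, authors' means) at 43 °C (red, left) and 23 °C (blue, right), with the compartment under each name. HSP90.1 stands at 454 FPKM at 43 °C against 37.1 FPKM at 23 °C, HSP90.4 is the lower of its pair at 43 °C, and the CLPB3 bars are nearly level.

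In the cytosol, 4 transcripts matched HSP90 of which 1 rose, 1 fell and 2 did not pass. HSP90.1 (AT5G52640) had 3 of them. The main one, 2772 bases long, averaged 448 FPKM at 43 °C against 30.7 FPKM at 23 °C, a 14.6-fold difference. Its log2 change in the authors' deposited table was 3.86, with an adjusted p listed as 0. It ranked 115 of all transcripts by FPKM at 43 °C, against rank 3152 at 23 °C. Among the 249 transcripts with at least its mean abundance over both temperatures, its log2 change ranked 2 from the top in the authors' deposited table.

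The other HSP90.1 matches were scarce. A contig of 1167 bases did not pass, at 4.03 FPKM at 43 °C against 4.83 FPKM at 23 °C, and its E value of 4.1e-26 marks a weaker match. A transcript of 1799 bases did not pass either, at 1.68 FPKM at 43 °C against 1.62 FPKM at 23 °C. Together they made up little of the locus at 43 °C, where the main transcript held 98.7% of the summed FPKM, against 82.6% at 23 °C. Summed over the locus, HSP90.1 had 454 FPKM at 43 °C against 37.1 FPKM at 23 °C, a ratio of 12.2.

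HSP90.4 (AT5G56000) belongs to the cytosolic forms that Arabidopsis expresses without stress. It had a single transcript of 2565 bases, which fell to 252 FPKM at 43 °C, against 340.0 FPKM at 23 °C. The log2 change in the authors' deposited table was -0.44, with an adjusted p of 3.18e-09. With both FPKM columns scaled to equal length-weighted totals, which adds 0.25 to each log2 change, it was -0.18, with an estimated adjusted p of 0.023, so the direction and the call held. In Arabidopsis HSP90.2, HSP90.3 and HSP90.4 are close copies, and reads of several Atriplex copies could have been gathered in this transcript.

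The order within the cytosol differed between the temperatures. At 43 °C the summed FPKM of HSP90.1 was 1.799 times that of HSP90.4, against 0.109 times at 23 °C. Such a ratio within 1 temperature does not depend on how the columns were scaled. Both loci together summed to 707 FPKM at 43 °C against 377 FPKM at 23 °C, a ratio of 1.87. Weighted by length they made up 0.209% of the FPKM total at 43 °C and 0.0890% at 23 °C.

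HSP90.5 (AT2G04030, also called CR88), the plastid HSP90, is needed in Arabidopsis for chloroplast development. Its single transcript of 3105 bases rose to 214 FPKM at 43 °C, against 48.7 FPKM at 23 °C. The difference was 4.39-fold, and the authors' deposited table lists a log2 change of 2.13 with an adjusted p = 2.22e-185. Among the 550 transcripts with at least its mean abundance, its log2 change in the authors' deposited table ranked 21. Its level was 0.848 times that of HSP90.4 at 43 °C and 0.143 times at 23 °C.

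HSP90.7 (AT4G24190, SHEPHERD) is the ER member, which in Arabidopsis is needed for CLAVATA signalling in meristems. Its single transcript of 3101 bases rose to 108 FPKM at 43 °C, against 52.8 FPKM at 23 °C. The authors' deposited table lists a log2 change of 1.03 and an adjusted p = 3.58e-28. At 43 °C HSP90.7 and HSP90.5 stood at 108 and 214 FPKM, whereas at 23 °C they stood at similar levels, 52.8 and 48.7 FPKM. The difference between their changes was not tested.

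HSP90.6 (AT3G07770, Hsp89.1), the mitochondrial member, had 10 transcripts, of which 8 rose and 2 did not pass, and every one of the 10 was listed higher at 43 °C. The most abundant, of 2746 bases, rose to 67.2 FPKM at 43 °C, against 12.5 FPKM at 23 °C. The authors' deposited table gives it a log2 change of 2.42, adjusted p = 1.86e-104. A transcript of 2881 bases had 17.1 FPKM at 43 °C against 4.25 FPKM at 23 °C, and one of 2970 bases had 16.4 FPKM at 43 °C against 1.90 FPKM at 23 °C. Their log2 changes in the authors' deposited table were 1.995 (adjusted p = 2.78e-08) and 3.10 (adjusted p = 6.98e-54). By their names all 3 belong to 1 assembly component, whose members can share reads, and held 83.6% of the locus at 43 °C against 73.0% at 23 °C.

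**Figure D2:**
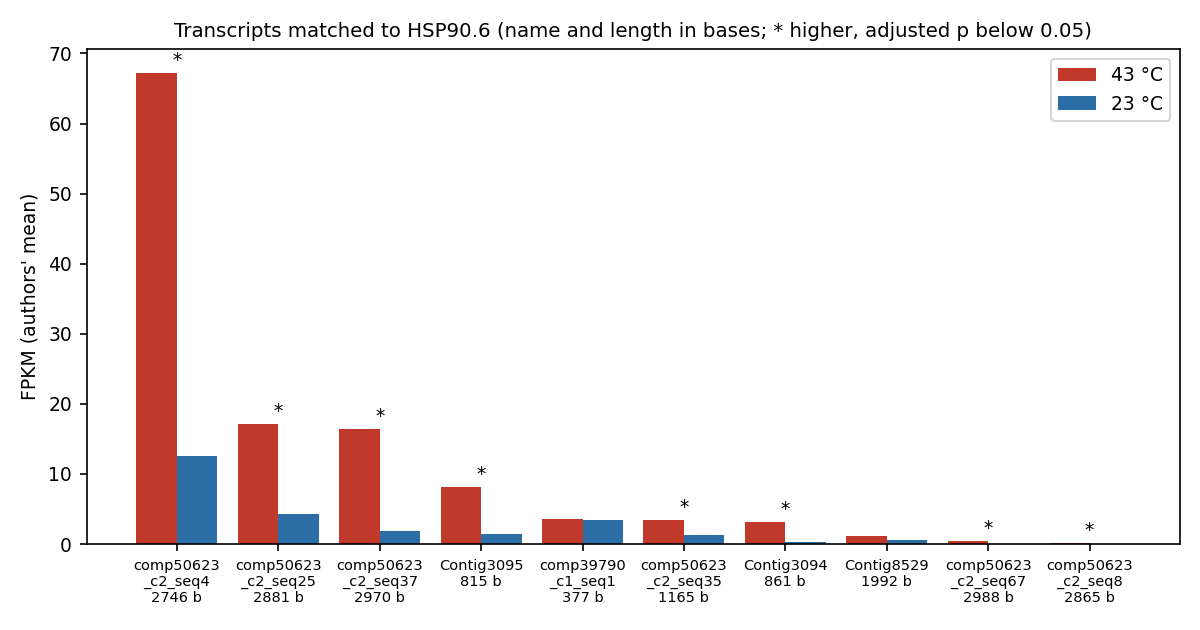
FPKM (y axis, authors' means) of the 10 transcripts matched to HSP90.6 at 43 °C (red, left) and 23 °C (blue, right), with the assembly name and the length in bases (b) under each. Stars mark the 8 with an adjusted p below 0.05, all of them higher at 43 °C. The transcript of 2746 bases is the highest at both temperatures.

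The remaining 7 HSP90.6 matches were between 0.168 and 8.20 FPKM at 43 °C and between 0 and 3.38 FPKM at 23 °C. Of these, 2 long transcripts were listed at 0 at 23 °C and at 0.36 and 0.168 FPKM at 43 °C, and both passed, as did all 867 transcripts of the table listed at 0 at 23 °C. The other 5 matched with E values above 1e-30 and were 377 to 1992 bases long, so the match may cover only a part of them. The shortest, of 377 bases, did not pass, with 3.52 FPKM at 43 °C against 3.38 FPKM at 23 °C. It held 2.92% of the locus at 43 °C and 13.2% at 23 °C. Over all 10 transcripts HSP90.6 summed to 120.5 FPKM at 43 °C against 25.5 FPKM at 23 °C, a ratio of 4.72. With the close matches alone the ratio was 5.43.

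HSP101 (AT1G74310) was the scarcest of the member loci at both temperatures. Its single contig of 3385 bases rose to 17.5 FPKM at 43 °C, against 5.87 FPKM at 23 °C. By the authors' deposited table this was a log2 change of 1.57, adjusted p = 3.98e-44. For each FPKM of HSP101 there were 40.3 FPKM of cytosolic HSP90 at 43 °C and 64.2 FPKM at 23 °C.

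CLPB4 (AT2G25140), the mitochondrial disaggregase, also had a single transcript, of 3649 bases. It rose to 23.7 FPKM at 43 °C, against 12.7 FPKM at 23 °C, which the authors' deposited table gives as a log2 change of 0.89, adjusted p = 4.64e-23. Within the mitochondrion, HSP90.6 was 5.08 times as abundant as CLPB4 at 43 °C and 2.01 times at 23 °C.

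CLPB3 (AT5G15450, APG6), the plastid disaggregase, is needed in Arabidopsis for chloroplast development. Its transcript of 3612 bases stood at 49.4 FPKM at 43 °C against 50.1 FPKM at 23 °C. It did not pass (by the authors' deposited table, log2 change -0.03 and adjusted p = 0.81), but with equal totals the log2 change turned to 0.22 with an estimated adjusted p of 0.010. HSP90.5, also of the plastid, was at 4.34 times CLPB3 at 43 °C. At 23 °C both were at nearly one level, with HSP90.5 at 0.974 times CLPB3. CLPB3 stood at 2.82 times HSP101 at 43 °C and at 8.52 times at 23 °C.

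**Figure D3:**
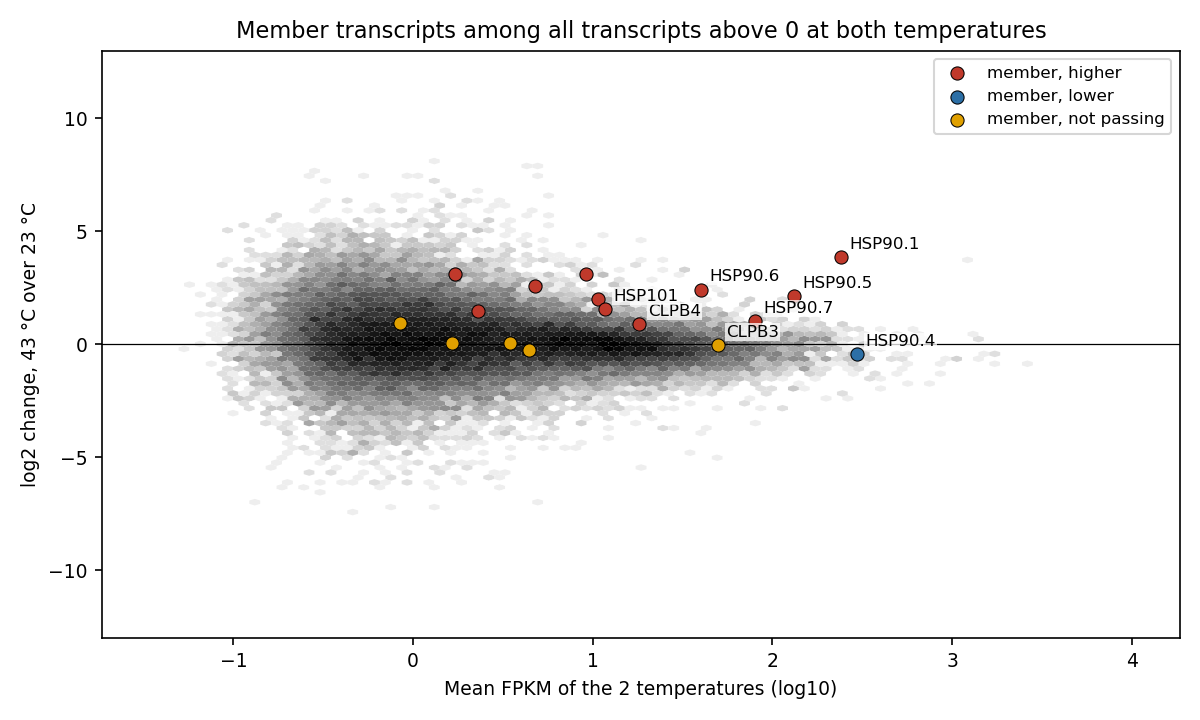
The log2 change of 43 °C over 23 °C in the authors' deposited table (y axis) against the mean FPKM of both temperatures (x axis, log10) for transcripts above 0 at both temperatures, with darker grey for more transcripts. Coloured points are the 17 member transcripts above 0 at both (red higher, blue lower, yellow not passing), and names stand at those with at least 30% of their locus at 23 °C. HSP90.1 lies above nearly all transcripts of its abundance, with a log2 change of 3.86, and HSP90.4 and CLPB3 lie near 0.

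The make-up of the HSP90 sum by compartment differed between the temperatures. The cytosolic loci held 61.5% of all HSP90 FPKM at 43 °C, against 74.8% at 23 °C. The plastid share was 18.6% at 43 °C and 9.67% at 23 °C, and the mitochondrial share 10.5% at 43 °C and 5.07% at 23 °C. The ER share was similar, 9.41% at 43 °C and 10.5% at 23 °C. All 5 matched HSP90 loci summed to 1149 FPKM at 43 °C against 504 FPKM at 23 °C, a ratio of 2.28.

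Among the disaggregases, CLPB3 held 54.5% of the sum at 43 °C and 73.0% at 23 °C. HSP101 held 19.3% at 43 °C and 8.56% at 23 °C, and CLPB4 26.2% at 43 °C and 18.5% at 23 °C. The 3 loci summed to 90.63 FPKM at 43 °C against 68.6 FPKM at 23 °C, a ratio of 1.32. On the FPKM scale the HSP90 sum was 12.7 times that of the disaggregases at 43 °C and 7.35 times at 23 °C. No error can be given for these shares and ratios, which come from means.

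**Figure D4:**
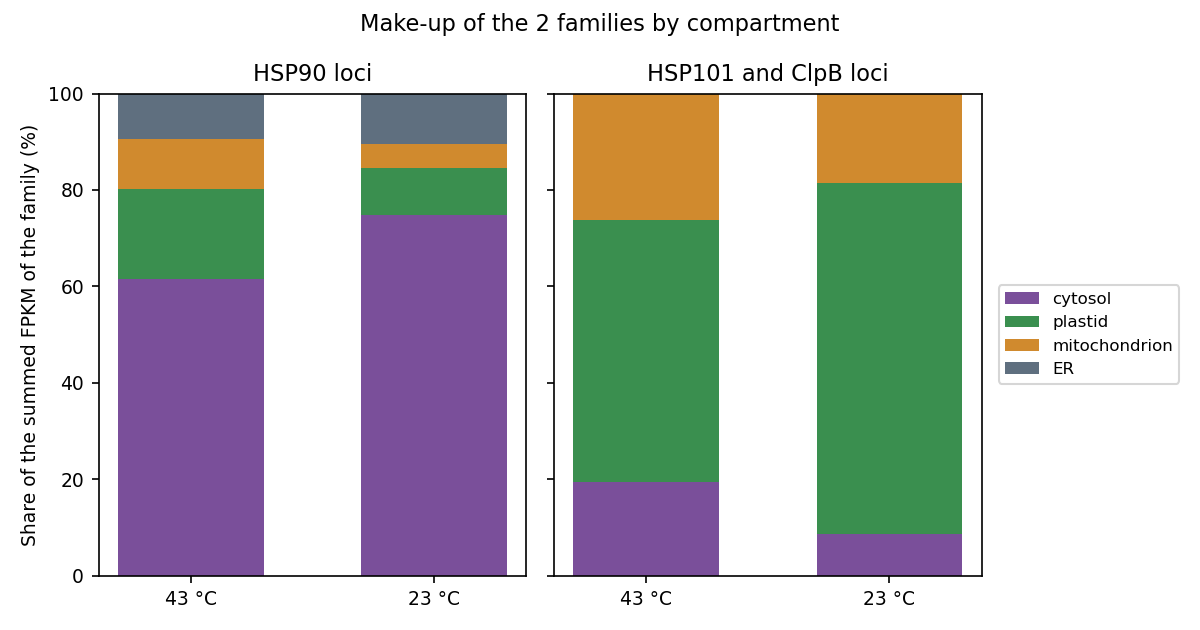
Share of the summed FPKM (y axis, %) held by each compartment, for the HSP90 loci (left panel) and for HSP101, CLPB3 and CLPB4 (right panel), with 43 °C left of 23 °C in each. The cytosolic part of HSP90 is 61.5% at 43 °C and 74.8% at 23 °C, and the plastid part of the disaggregases is 54.5% at 43 °C and 73.0% at 23 °C.

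HSP90 works with co-chaperones that bind its ends, set the pace of its ATPase or bring in clients. A list of 15 such genes, with HSA32 as a partner of HSP101, had matches for 12, with 40 transcripts. By the most abundant transcript 8 genes rose, none fell (none also at an unadjusted p below 0.05 in the authors' deposited table) and 4 did not pass, beside 26.9% of all matched loci higher and 30.9% lower. Over all transcripts 15 rose (37.5%), 5 fell (12.5%) and 20 did not pass, and by the authors' deposited table their median log2 change was 0.38, beside 0.10 over all transcripts. HOP1, HOP2 and SGT1A had no match.

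P23-2 and P23-1 are forms of p23, which in other eukaryotes binds the closed state of HSP90. The main P23-2 transcript rose to 75.8 FPKM at 43 °C, against 11.6 FPKM at 23 °C (by the authors' deposited table, a log2 change of 2.71). Another stood at 14.1 FPKM at 43 °C against 14.4 FPKM at 23 °C and did not pass. That unchanged transcript had the closer match to P23-2, with an E value of 2.3e-59 against 4.3e-27 for the main one. P23-1 rose to 252 FPKM at 43 °C, against 135 FPKM at 23 °C. Cytosolic HSP90 was thus 2.80 times as abundant as P23-1 at 43 °C and 2.79 times at 23 °C. The match to AHA1, which in yeast and animals speeds the HSP90 ATPase, rose to 70.0 FPKM at 43 °C, against 25.1 FPKM at 23 °C.

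HSA32, which in Arabidopsis prolongs acquired heat tolerance together with HSP101, rose to 81.0 FPKM at 43 °C, against 14.9 FPKM at 23 °C. Its level was 4.62 times that of HSP101 at 43 °C and 2.54 times at 23 °C. HOP3, which links HSP70 to HSP90, rose to 97.6 FPKM at 43 °C, against 84.6 FPKM at 23 °C (adjusted p = 0.014 in the authors' deposited table). SGT1B, an adaptor of HSP90 for immune receptors, rose to 104 FPKM at 43 °C, against 76.4 FPKM at 23 °C. RAR1, which acts with SGT1B, did not pass at 11.5 FPKM at 43 °C against 10.5 FPKM at 23 °C.

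Immunophilins with tetratricopeptide repeats dock on the end of HSP90. The main ROF2 transcript rose to 115 FPKM at 43 °C, against 30.0 FPKM at 23 °C, but a second fell to 22.9 FPKM at 43 °C, against 38.0 FPKM at 23 °C. TWD1 rose to 23.4 FPKM at 43 °C, against 15.4 FPKM at 23 °C. The main ROF1 transcript did not pass, at 6.28 FPKM at 43 °C against 7.12 FPKM at 23 °C. Its E value of 5e-18 marks a weaker match. Nor did the main transcript of the cyclophilin SQN pass (12.5 FPKM at 43 °C against 10.6 FPKM at 23 °C). That of the phosphatase PP5 did not pass either (16.7 FPKM at 43 °C against 17.4 FPKM at 23 °C). A scarcer PP5 transcript fell to 0.94 FPKM at 43 °C, against 4.01 FPKM at 23 °C. Another fell to 0.09 FPKM at 43 °C, against 0.80 FPKM at 23 °C, and the remaining PP5 transcripts did not pass. With E values of at most 1e-30, a limit that the risen P23-1, P23-2 and ROF1 transcripts, among others, did not meet, 6 transcripts of the list rose and 3 fell. The 6 were the main transcripts of AHA1, HOP3, HSA32, ROF2, SGT1B and TWD1. No ROF1 transcript, risen or not, met this limit, and the closest had an E value of 1.8e-18.

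**Figure D5:**
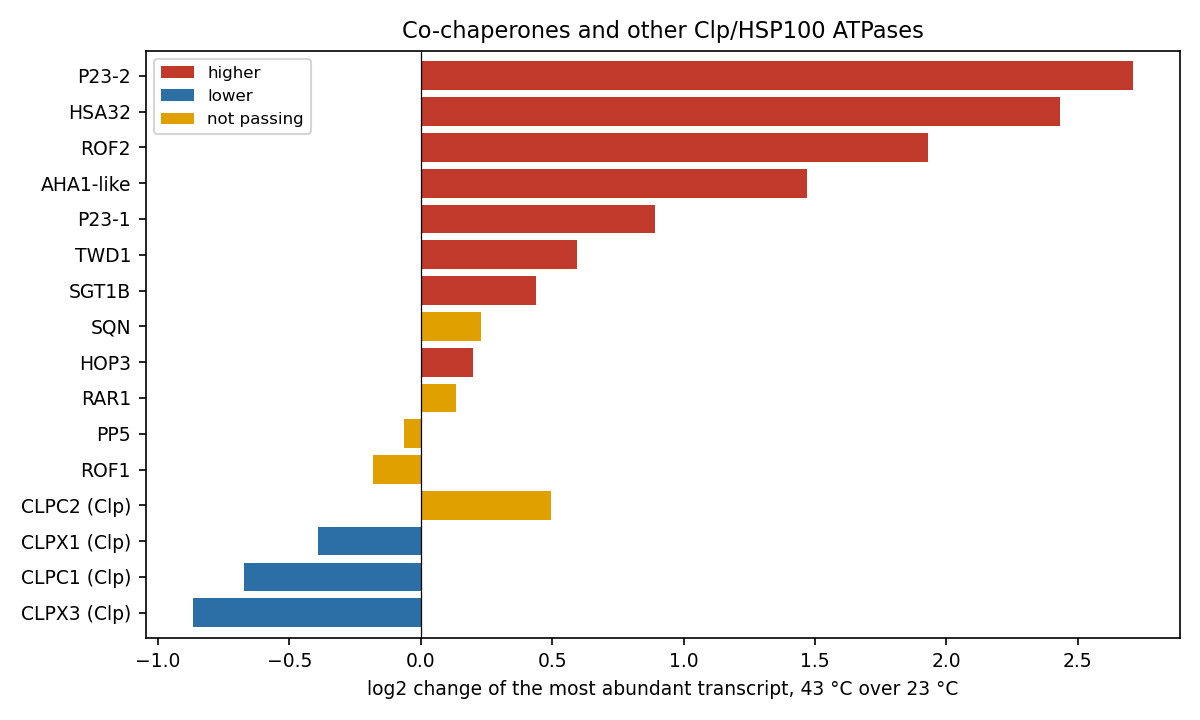
The log2 change of 43 °C over 23 °C in the authors' deposited table (x axis) of the most abundant transcript of each matched co-chaperone gene and, marked Clp, of other Clp/HSP100 ATPases. Red bars rose, blue bars fell and yellow bars did not pass. P23-2 has the highest bar at 2.71 and CLPX3 the lowest at -0.87.

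Among the other Clp/HSP100 ATPases, those of the ClpC, ClpD and ClpX types feed proteins to the Clp protease of the plastid or the mitochondrion for degradation, whereas CLPB2 is a relative of HSP101. Of 7 genes on this list 4 had a match, with 9 transcripts. Of these 5 fell, none rose (none also at an unadjusted p below 0.05 in the authors' deposited table) and 4 did not pass. Over all transcripts 17.8% fell and 20.7% rose. The main transcript of CLPC1, a plastid form, fell to 289.6 FPKM at 43 °C, against 459 FPKM at 23 °C. CLPX3 fell to 9.9975 FPKM at 43 °C, against 18.1 FPKM at 23 °C. CLPX1 fell to 46.2 FPKM at 43 °C, against 60.3 FPKM at 23 °C, but with equal totals this transcript no longer passed and 3 of the 9 were lower. CLPC2 did not pass at 1.48 FPKM at 43 °C against 1.04 FPKM at 23 °C, and CLPB2, CLPD and CLPX2 had no match. Whether the ClpB members differed from these relatives was not tested.

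Likeness to a member was measured as the Euclidean distance in log2(FPKM + 1) over the 2 group means, the only points that could be used. Nearest to the main HSP90.1 transcript was GER3, a germin, with 341 FPKM at 43 °C against 26.8 FPKM at 23 °C (distance 0.44). A transcript of LTP1, a lipid transfer protein, followed with 288 FPKM at 43 °C against 30.6 FPKM at 23 °C (distance 0.64), and then one of HSP17.4, a small heat shock protein, with 284 FPKM at 43 °C against 48.4 FPKM at 23 °C (distance 0.92). For HSP101 the 3 nearest matched a SUI1 family translation factor (AT1G71350), an ICln family protein (AT5G62290) and an eIF3 subunit (AT1G66070), with distances of 0.06 to 0.08. Over 2 points many genes lie close together, and likeness says no more than that.

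The leaf label was checked against markers. Among 6 genes listed as mesophyll markers 4 had a match, namely RBCS1A, RBCS3B, RCA and LHCB1.3. Of their 12 transcripts 9 fell, 1 rose and 2 did not pass, whereas over all transcripts 17.8% fell and 20.7% rose. The 1 that rose matched RCA, with 414 FPKM at 43 °C against 267 FPKM at 23 °C. The 4 genes summed to 11119 FPKM at 43 °C, against 22162 FPKM at 23 °C. Among these genes LHCB1.3 alone held 7014 FPKM at 43 °C and 16749 FPKM at 23 °C. Whether these genes mark mesophyll in a C4 leaf was not tested, so their sum is no measure of mesophyll content. Of 5 floral markers only AP3 had a match, and it did not pass, with 1.94 FPKM in sum at 43 °C and 4.04 FPKM at 23 °C. Of 5 markers of dividing cells only KNOLLE had a match, and it rose to 3.63 FPKM at 43 °C, against 1.40 FPKM at 23 °C. The part of a changed cell make-up in the values of the chaperones was not tested. Multiplied by length in kilobases the FPKM columns summed to 909555 at 43 °C and 1084419 at 23 °C, so equal totals would add 0.25 to each log2 change. With equal totals an estimated 12953 transcripts would be higher and 5982 lower (68.4% of calls higher), against 9618 higher and 8291 lower as deposited (53.7% higher).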

How the data were processed

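Leaf RNA from 4 libraries at 43 °C and 4 at 23 °C, called biological replicates in the series' design text, was summarised by the authors in 1 deposited table of FPKM per assembled transcript, with 1 value per temperature. The submitters' processing notes name CASAVA 1.8.2 and Bowtie2. For the assembler, counting tool, normalization and test the entry is the same: not given in the sources used here. Each FPKM value is a multiple of 0.0025 (within 1e-6), which fits averages over 4 libraries of values rounded to 2 decimals, and was treated as a mean. Per the file headers the table also holds log2 fold changes, p-values and FDR, which were used as deposited, and the FDR equalled a Benjamini-Hochberg adjustment over all transcripts to within 3.2e-07. Whether spread among plants or counting error alone lies behind these p-values is likewise unknown here.

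No test between groups was run here, since no values of single libraries were at hand: the design had named limma for such values. Whether low FPKM values lie in steps of whole reads was not tested. FPKM were summed per matched locus and per compartment, and a 1.5-fold difference of sums was counted. Calls under another scaling were estimated from a standard error worked back from the deposited p on a normal scale. That step was checked only on data simulated on the same normal scale. The check therefore cannot show that the step suits the authors' test, and these calls remain estimates. Every member is described, with full values for transcripts holding at least 10% of their locus. Each further list gene is given by its most abundant transcript (highest mean of both temperatures), and for HSP90.1 and HSP101 the 3 nearest matched transcripts are named. The members and lists were chosen with earlier results of these data known. Python 3.11.15, pandas 2.3.3 and scipy 1.17.1 were used.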

Additional observations from a re-analysis of the deposited data

How the results depend on the processing

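The counts of member transcripts that rose and fell were recomputed at an adjusted p threshold of 0.01, at minimum mean FPKM of 1 and 5, with equal totals, with median centring, with E values of at most 1e-30 and, an alternative chosen after seeing the data, without transcripts listed at 0. Of these settings a minimum of 5 FPKM moved the count of risen members from 13 by over 1.5 times, to 8, by its own construction of fewer transcripts. Equal totals gave 14 risen members, since CLPB3 was then counted as higher, with a log2 ratio of its sum of 0.23 in place of -0.02. The 3 disaggregase loci together then passed 1.5-fold (log2 ratio 0.66, against 0.40 as deposited). An adjusted p threshold of 0.01 ended the call of 1 HSP90.6 transcript listed at 0 at 23 °C. At a fold of 2 in place of 1.5, 5 loci in place of 6 were higher, since CLPB4 (1.87-fold) no longer counted. Apart from these, the member transcript and locus results kept direction and side of the threshold under each setting run. Pseudocounts of 0.1 and 1 cannot turn a direction, and for transcripts the deposited call was carried over, so there they test nothing. The adjusted p threshold of 0.01 cannot turn a direction either and bears on calls alone. Length weighting and the most abundant transcript leave the 6 loci with 1 transcript unchanged by construction. So do the minima of 500 bases and of 1 and 5 FPKM and the E limit, which those single transcripts all met. These locus settings therefore bear on HSP90.1 and HSP90.6 only, and the minima of 500 bases and 1 FPKM on HSP90.6 only.

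Co-chaperone counts moved more: from 15 risen to 9 at a minimum of 1 FPKM, 8 at 5 FPKM and 6 with E values of at most 1e-30, and from 5 fallen to 2, 1 and 3 under the same settings. The other Clp/HSP100 transcripts had 3 lower in place of 5 with equal totals. Leaving out single replicates was not run, since the table holds means. No paired analysis was possible because the columns carry no replicate numbers. Read depth is unknown, and the deposited p-values are the single guide to the precision of a value.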
